A study of Mus musculus with 10 samples.

Results

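The Hox genes of the lung are the protein-coding members of the Hoxa, Hoxb, Hoxc and Hoxd clusters. They were chosen by symbol alone from the deposited gene table, which gave 39 genes among 54532 rows. The 39 genes filled 40 rows because Hoxd4 was listed in 2 rows. Whole lungs of wild-type C57/BL6 mice, male or female, were compared at postnatal day 14 (P14). In the increased pulmonary blood flow (IncPBF) group, 5 lungs came from pups in which a fistula between the abdominal aorta and the inferior vena cava had been made at P7, so that aortic blood entered the vein and returned through the lung. In the sham group, 5 lungs came from pups that had the same laparotomy at P7 without the puncture. A pup with a fistula is a model of the added flow, and it has no heart defect of its own. According to the paper, this surgery also overloaded the right ventricle with volume in earlier work. Nothing in the labels names the litter, so whether the lungs are independent of each other is not known. The p-values set the difference between the groups against the spread between these lungs.

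Hox genes encode homeodomain transcription factors and lie in 4 clusters, each on its own chromosome. Genes at the same position in different clusters are paralogs, numbered from 1 at the 3′ end to 13 at the 5′ end, and in the embryo the order along the chromosome follows the order of expression from head to tail. In the mouse lung the genes of the 3′ and middle positions are transcribed mainly in the mesenchyme, the connective tissue around airways and alveoli. Hoxa5 is the best known of them, because mice without it have malformed airways and lungs. On many targets Hox proteins bind together with cofactors of the Pbx and Meis families, and Trithorax and Polycomb proteins hold the clusters in an open or a closed state.

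The homeobox of Hoxa5 is shown because this gene holds the largest share of the Hox RNA of the lung. The homeobox is the stretch of 180 bases, 60 codons, that encodes the DNA-binding homeodomain. It is read from the GENCODE transcript on GRCm38, 5′ to 3′ along the gene, and lies in exon 2 at chr6:52202632-52202811 on the minus strand. Capitals mark codons 48 to 53, the most conserved part of the helix that reads the bases of DNA.
Hoxa5: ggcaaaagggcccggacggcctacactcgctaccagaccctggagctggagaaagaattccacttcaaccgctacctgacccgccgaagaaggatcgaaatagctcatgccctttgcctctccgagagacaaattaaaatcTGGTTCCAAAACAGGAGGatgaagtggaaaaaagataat
Between the homeoboxes of Hoxa5 and Hoxb4 44 bases and 7 codons differ, and between those of Hoxa5 and Hoxb6 45 bases and 8 codons, counting codons that change the residue. Over whole transcripts, the longest run of bases shared by any 2 expressed Hox genes was 52 bases, between Hoxa6 and Hoxb4, and it was 32 bases between Hoxa5 and Hoxb7, the longest for Hoxa5.

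The 250 bases before the annotated start of 3 genes, from RefSeq on GRCm38.p6, are shown because Hoxb4 and Hoxb8 were higher in the IncPBF lungs while Hoxa5, the most abundant Hox gene, did not pass the test. RefSeq windows were at hand for 7 of the 14 expressed genes. Capitals mark every match, on either strand, to CCAAT (the CCAAT box), TATAAA (the TATA box), CACGTG (the E-box) or TGATNNAT (a letter pattern bound by Pbx and Hox proteins together), and no match overlaps another in these windows. The Hoxb4 window spans chr11:96318017-96318266 and the Hoxb8 window chr11:96281655-96281904, both on the plus strand, and the Hoxa5 window spans chr6:52204588-52204837 on the minus strand.
Hoxb4: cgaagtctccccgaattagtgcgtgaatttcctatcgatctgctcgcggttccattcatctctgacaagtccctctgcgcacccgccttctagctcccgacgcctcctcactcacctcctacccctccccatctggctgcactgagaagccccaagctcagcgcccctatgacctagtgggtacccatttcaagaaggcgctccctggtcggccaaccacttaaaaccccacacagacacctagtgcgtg
Hoxb8: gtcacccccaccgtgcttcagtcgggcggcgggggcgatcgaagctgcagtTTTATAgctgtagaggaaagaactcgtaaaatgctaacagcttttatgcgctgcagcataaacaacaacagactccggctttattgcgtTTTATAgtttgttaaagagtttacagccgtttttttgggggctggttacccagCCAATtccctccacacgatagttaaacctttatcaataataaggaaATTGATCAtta
Hoxa5: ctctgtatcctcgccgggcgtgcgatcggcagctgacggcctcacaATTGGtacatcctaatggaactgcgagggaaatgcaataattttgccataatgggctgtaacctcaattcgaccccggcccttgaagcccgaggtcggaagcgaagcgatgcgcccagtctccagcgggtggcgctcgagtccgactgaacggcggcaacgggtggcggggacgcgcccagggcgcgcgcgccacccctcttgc
The Hoxb8 window held 2 TATA box matches, 1 CCAAT box and 1 TGATNNAT, the last 11 bases before the start. The Hoxa5 window held 1 CCAAT box, 204 bases before the start, and the Hoxb4 window held none of the 4 patterns. Of all 32851 promoter windows of this length, 33.8% held a CCAAT box, 12.4% a TATA box, 6.02% an E-box and 7.68% a TGATNNAT. A match is a match of letters and not a measured binding site.

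RNA was sequenced in bulk from each lung and the deposited values are FPKM, fragments scaled to gene length and library size, so levels can be compared between genes per length. Multiplied by gene length, 100% of the values lay within 0.05 of a whole number of fragments, and these fragments totalled 16103423 to 20318525 on genes per lung. The total implied by the scaling was 1.02 to 1.07 times these fragments in IncPBF lungs and 0.958 to 1.03 times in sham lungs. The reason was not tested. A fragment of a 1 kb gene was worth 0.0482 to 0.0580 FPKM. Xist, the RNA of the inactive X chromosome, stood at 52.4 to 66.5 FPKM in IncPBF lungs 2 to 5 and at most at 0.0770 FPKM in IncPBF lung 1 and all sham lungs, where the Y-linked Ddx3y stood at 18.6 to 24.6 FPKM. Sex-linked expression therefore differed between the groups in all but 1 lung. IncPBF lungs 2 and 4 also held heart muscle RNA, with Myl7 at 10.6 and 11.8 FPKM against at most 2.07 FPKM in the other lungs, and sham lung 5 held little of the airway transcript Scgb1a1 (128 FPKM against at least 4802). A gene was called different where its adjusted p was under 0.05 (limma, Benjamini-Hochberg over all tested genes).

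Of the 39 Hox genes, 14 were expressed, with a mean of at least 0.5 FPKM over the 10 lungs. They were 7 genes of the Hoxa cluster, with Hoxa2 to Hoxa7 in an unbroken block, and in the Hoxb cluster the unbroken block of the 7 genes Hoxb2 to Hoxb8. None of the 9 Hoxc genes and none of the 9 Hoxd genes was expressed by this measure. The lowest mean among the expressed genes was 1.06 FPKM (Hoxb8) and the highest among the others was 0.214 FPKM (Hoxd8), so the threshold fell in a gap. Sham lungs had Hoxb8 at 0.483 FPKM at the least, just under the threshold, and no other expressed gene was under it in any lung.

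**Figure D1:**
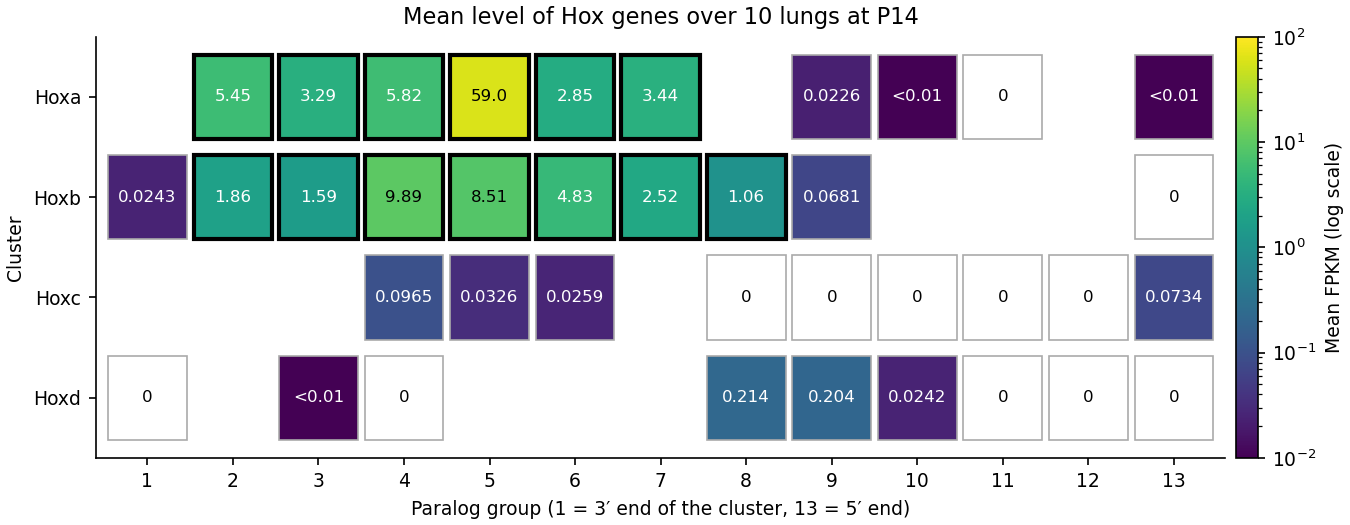
Mean FPKM over the 10 lungs (colour on a log scale, value printed in each box) by cluster (rows) and paralog group (columns); black frames mark expressed genes and white boxes with a 0 the genes without a fragment in any lung, and positions without a box hold no gene or are not shown. Framed genes run from Hoxa2 to Hoxa7 and from Hoxb2 to Hoxb8, with Hoxa5 at 59.0 FPKM.

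The edges of the blocks were sharp. Hoxa7 had a mean of 3.44 FPKM and its 5′ neighbour Hoxa9, separated from it by 1245 bases, had 0.0226 FPKM, a ratio of 152. In Hoxb, Hoxb8 at 1.06 FPKM was followed by Hoxb9 at 0.0681 FPKM, a ratio of 15.6. At the 3′ end, Hoxb2 at 1.86 FPKM stood beside Hoxb1 at 0.0243 FPKM, a ratio of 76.3. Hoxa9, Hoxb9 and Hoxb1 rested on 24, 33 and 11 fragments over all 10 lungs together, so the ratios at the edges carry a wide counting error.

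Among the expressed genes, Hoxa5 had a level far above the rest. Its mean over the 10 lungs was 59.0 FPKM, which put it at rank 696 among all genes of the table. Hoxb4 followed at 9.89 FPKM and Hoxb5 at 8.51 FPKM. Their ranges over the lungs overlapped, but within every lung Hoxb4 was above Hoxb5. Hoxa4 (5.82), Hoxa2 (5.45) and Hoxb6 (4.83 FPKM) came next, and their ranges over the lungs overlapped. Hoxa7 (3.44), Hoxa3 (3.29), Hoxa6 (2.85), Hoxb7 (2.52), Hoxb2 (1.86), Hoxb3 (1.59) and Hoxb8 (1.06 FPKM) had lower means. The order was not the same in every lung: in sham lung 4 Hoxa7 (6.29 FPKM) was above Hoxa2 (5.63), Hoxa4 (4.33) and Hoxb6 (3.89 FPKM). Paralog group 5 held 60.1% of the summed mean FPKM of all Hox genes, group 4 14.1% and group 6 6.86%, and groups 9 to 13 together stayed under 1 FPKM.

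The 25 genes that were not expressed were close to the detection limit. Of these, 12 genes (13 rows) had no fragment in any lung: Hoxa11, Hoxb13, Hoxc8 to Hoxc12, Hoxd1, Hoxd4 and Hoxd11 to Hoxd13. A count of 0 allows up to 3 fragments per lung, which for these genes is 0.0343 to 0.169 FPKM. In the GENCODE annotation, Hoxd4 shares 52.3% of its exonic bases on the same strand with Hoxd3 and Gm28230. Hoxd3 shares 62.3% of its own with Hoxd4 and Gm28230. How reads in such parts were counted is not given in the sources used here, so low counts of Hoxd3 and Hoxd4 do not show that their RNA was absent. Only Hoxd8 and Hoxd9 passed 10 fragments in a lung. Hoxd8 had 2 to 23 fragments per lung and 0.221 ± 0.154 FPKM in IncPBF against 0.207 ± 0.0872 FPKM in sham lungs (SD, n = 5). Hoxd9 had 3 to 17 fragments per lung and 0.194 ± 0.156 FPKM against 0.214 ± 0.0676 FPKM. For both the ranges of the groups overlapped widely. Of the other 23, 16 genes had at most 3 fragments in every lung and 7 reached 4 to 10 in some lung, among them Hoxc4 and Hoxc5. Hoxc5, the third member of paralog group 5, had 0, 1, 2, 4 and 5 fragments in the IncPBF lungs and 0, 1, 1, 2 and 3 in the sham lungs, each from lowest to highest, and a mean of 0.0326 FPKM.

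The comparison of the groups asks whether the level of Hox RNA at P14 differed between IncPBF and sham lungs. The groups also differed in sex-linked expression in all but IncPBF lung 1. In the other IncPBF lungs a difference by surgery and one by sex cannot be told apart. In the Hoxb cluster 5 of the 7 expressed genes, Hoxb2, Hoxb4, Hoxb5, Hoxb6 and Hoxb8, were higher in the IncPBF than in the sham lungs, and in the Hoxa cluster 0 of 7 were. No Hox gene was called lower. A difference between the clusters was not tested. Of all 15388 tested genes 32.3% were called in either direction, 16.1% as higher and 16.2% as lower. With the lungs scaled to equal totals 23.1% of all genes were called higher, 3559 of 5341 calls, and the same count of 5 Hox genes. The 14 expressed Hox genes had a median difference of 0.34 on the log2(FPKM + 0.1) scale, against 0.01 over all tested genes. The difference was above 0 for 12 of the 14, and below 0 for Hoxa5 and Hoxa7.

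Hoxb5 is the Hoxb paralog of Hoxa5 and acts with it in the early lung. It was measured at 9.08, 10.1, 11.0, 9.84 and 8.61 FPKM in IncPBF lungs 1 to 5 and at 6.88, 7.03, 8.30, 7.21 and 7.07 FPKM in sham lungs 1 to 5. Every IncPBF lung was above every sham lung, with sham lung 3 the nearest. The log2 difference was 0.41 ± 0.08 (SE; adjusted p = 0.0023 in limma), and the exact two-sided permutation p was 0.00794, the smallest that 5 lungs against 5 allow.

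Hoxb4, known best for its part in blood stem cells, was the most abundant Hoxb gene. It stood at 12.0, 10.9, 11.3, 12.1 and 9.53 FPKM in the IncPBF lungs and at 7.27, 8.56, 8.94, 9.79 and 8.55 FPKM in the sham lungs. IncPBF lung 5 lay just below sham lung 4, and the other 4 IncPBF lungs lay above all sham lungs. The log2 difference was 0.37 ± 0.09 (adjusted p = 0.0082, limma; exact permutation p = 0.0159).

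Hoxb6 is the next gene on the 5′ side of Hoxb5. It had 6.19, 5.19, 7.03, 5.70 and 4.63 FPKM in the IncPBF lungs and 2.87, 4.22, 4.49, 3.89 and 4.09 FPKM in the sham lungs, without overlap. Its log2 difference was 0.55 ± 0.13 (adjusted p = 0.0101, limma). Hoxb2, a gene of hindbrain patterning in the embryo, had 2.06, 1.82, 2.41, 2.33 and 2.36 FPKM in the IncPBF and 0.990, 1.63, 1.54, 1.78 and 1.66 FPKM in the sham lungs. The groups were again apart, by a narrow margin between IncPBF lung 2 and sham lung 4. The log2 difference of Hoxb2 was 0.52 ± 0.15 (adjusted p = 0.022, limma), and it lost the call without IncPBF lung 3 (adjusted p = 0.0521) or IncPBF lung 4 (adjusted p = 0.0526).

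Hoxb8 marks the 5′ edge of the expressed block and had the lowest level and the largest difference of the 14 genes. It was at 2.16, 0.830, 1.40, 1.45 and 1.46 FPKM in the IncPBF and at 0.507, 0.483, 0.706, 1.07 and 0.545 FPKM in the sham lungs. IncPBF lung 2 lay below sham lung 4, the highest of its group. The log2 difference was 1.03 ± 0.26 (adjusted p = 0.0109, limma; exact permutation p = 0.0159), on 24 to 110 fragments per lung.

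Of the 14 genes, 3 (Hoxb2, Hoxb5 and Hoxb6) had groups without overlap and IncPBF higher, against 12.0% of all tested genes. The same 3 were the Hox genes called when the exact permutation p, adjusted over all genes, replaced limma. That test called 1845 genes higher, the same number as had groups without overlap and IncPBF higher. It therefore repeats the overlap result and is not a second line of evidence. IncPBF lung 1, the only IncPBF lung with the sham pattern of Xist and Ddx3y, was above every sham lung in all 5 called genes. The calls used this lung, so its place in these genes is not independent of them. With log2 Xist as a covariate 0 Hox genes were called, with 6 under an unadjusted p of 0.05 (Hoxb4, Hoxb5, Hoxb6, Hoxb7 and Hoxb8 with IncPBF higher, and Hoxa5 with IncPBF lower), and 4.82% of all genes were called. The log2 differences were then 0.44 for Hoxb2, 0.46 for Hoxb4, 0.30 for Hoxb5, 0.64 for Hoxb6 and 1.57 for Hoxb8, with adjusted p from 0.0577 to 0.396. The group difference in that fit rests largely on IncPBF lung 1. Without IncPBF lungs 2 and 4, which held heart muscle RNA, 3 of the 5 calls held (Hoxb5, Hoxb6 and Hoxb8), while the share of all genes called fell to 18.2%. Hoxb2 and Hoxb4 then had log2 differences of 0.57 and 0.34, against 0.52 and 0.37 with all lungs, with adjusted p of 0.0574 and 0.0561 (limma).

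**Figure D2:**
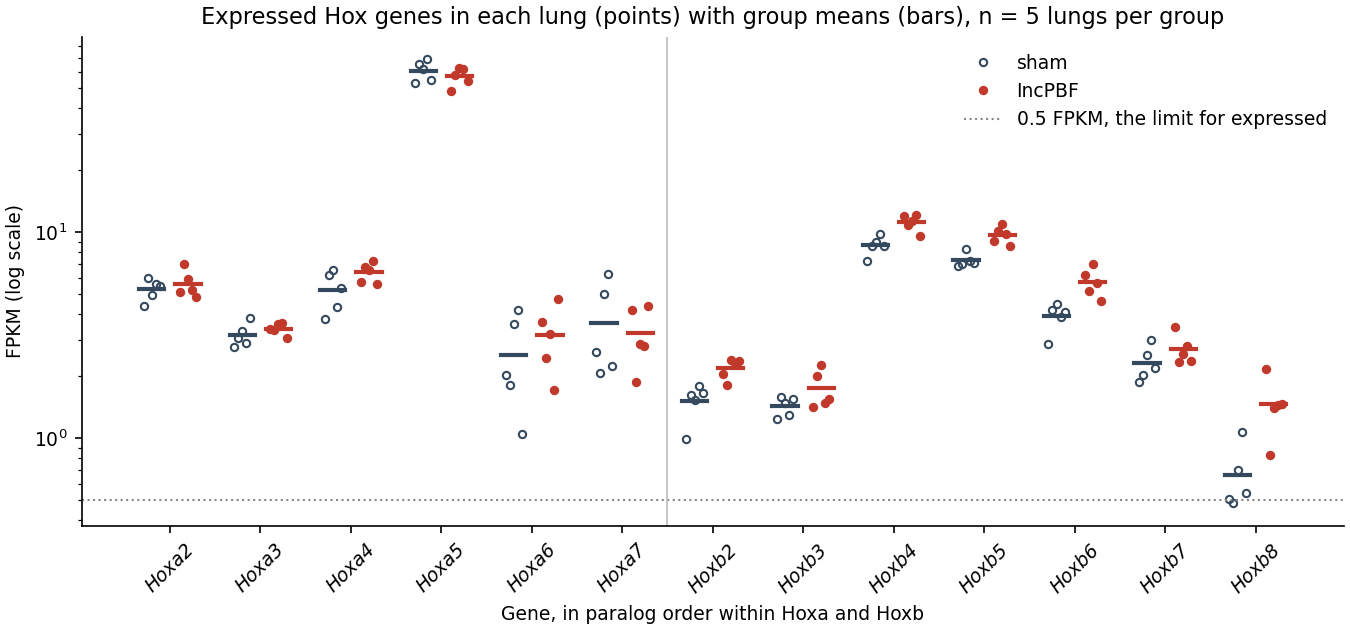
FPKM (log axis) of the expressed Hoxa2 to Hoxa7 and Hoxb2 to Hoxb8 genes in each lung, filled points for the 5 IncPBF lungs and open points for the 5 sham lungs, with bars at the group means and a dotted line at 0.5 FPKM. The groups are apart for Hoxb2, Hoxb5 and Hoxb6 and overlap for the other genes shown.

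The remaining Hoxb genes did not pass the test. Hoxb3 had 1.75 ± 0.373 FPKM in IncPBF and 1.44 ± 0.152 FPKM in sham lungs (SD, n = 5), a log2 difference of 0.25 with an adjusted p of 0.202 in limma. Its sign changed with Xist as a covariate, and 52.9% of its exonic bases lie opposite exons of the noncoding gene Hoxb3os. Hoxb7 had 2.72 ± 0.468 against 2.33 ± 0.456 FPKM, a log2 difference of 0.22. For Hoxb2 the share of exonic bases opposite Hoxb3os was 27.3% and for Hoxb5 the share opposite Hoxb5os was 3.59%, and Hoxb4, Hoxb6, Hoxb7 and Hoxb8 overlapped no other exon. Whether strand was used in counting is not given in the sources used here, so in the shared parts reads of Hoxb2 or Hoxb3 and of Hoxb3os cannot be told apart.

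Hoxa5 was measured at 48.6, 58.0, 62.6, 62.2 and 54.3 FPKM in IncPBF lungs 1 to 5 and at 53.1, 65.2, 62.0, 69.2 and 54.5 FPKM in sham lungs 1 to 5. The groups overlapped, and IncPBF lung 1 was the lowest of all 10 lungs. The log2 difference was -0.09 ± 0.09 (adjusted p = 0.50, limma), on 1765 to 2484 fragments per lung. With Xist as a covariate it was -0.32 (adjusted p = 0.224, limma). With a correction for GC content and gene length in the fit with the replicate block Hoxa5 was called lower, by 0.18 on the log2 scale (adjusted p = 0.0247, limma), while the same correction without the block gave no such call.

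The other Hoxa genes did not pass the test with all lungs. Hoxa2 had 5.62 ± 0.868 FPKM in IncPBF against 5.29 ± 0.618 FPKM in sham lungs (SD, n = 5), Hoxa3 3.40 ± 0.216 against 3.17 ± 0.414 FPKM, and Hoxa4 6.39 ± 0.711 against 5.24 ± 1.18 FPKM. Their log2 differences were 0.08, 0.10 and 0.30. Hoxa6 had 3.16 ± 1.15 against 2.54 ± 1.30 FPKM and Hoxa7 3.23 ± 1.06 against 3.64 ± 1.89 FPKM, with log2 differences of 0.38 and -0.09. Exons of other annotated genes lie opposite 25.4% of the exonic bases of Hoxa3, 20.4% of Hoxa7 and 16.0% of Hoxa4. They share the strand over 15.0% of Hoxa2 and 8.01% of Hoxa3. The sign for Hoxa7 turned to 0.09, 0.06 and 0.14 without IncPBF lung 2, sham lung 3 or sham lung 4.

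**Figure D3:**
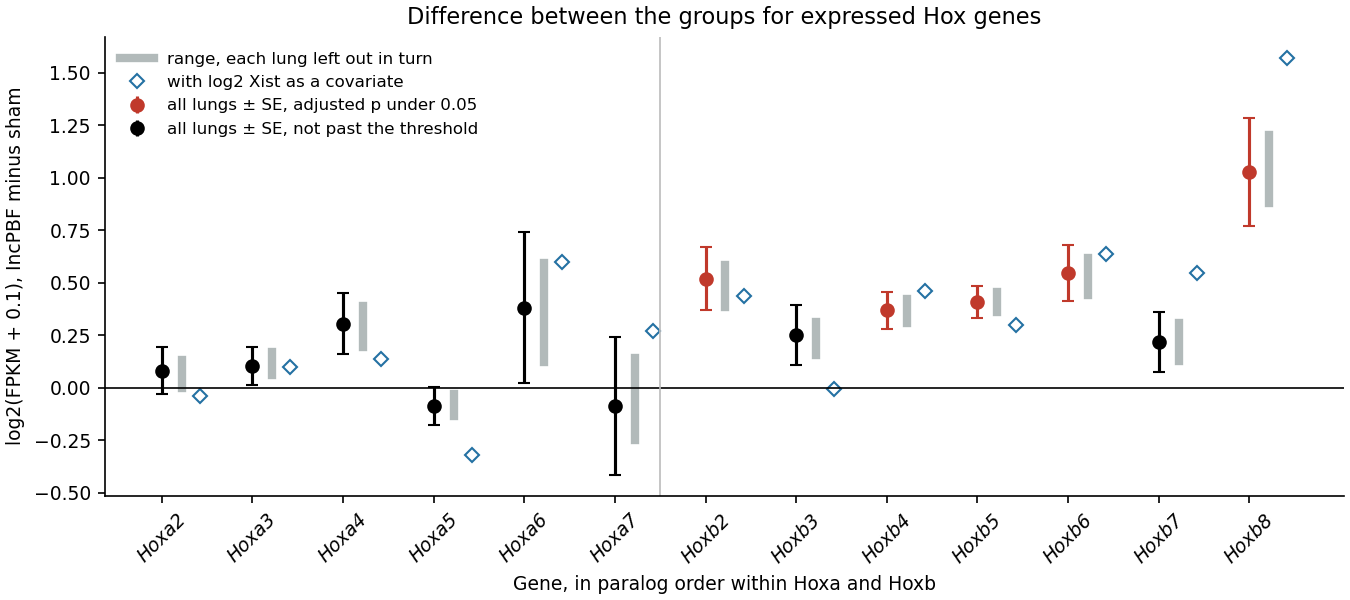
Log2 difference of FPKM + 0.1, IncPBF minus sham, for Hoxa2 to Hoxa7 and Hoxb2 to Hoxb8 with its SE (points, red where the adjusted p is under 0.05), the range when each lung is left out in turn (grey bars) and the value with log2 Xist as a covariate (open diamonds). The 5 called genes, from 0.37 (Hoxb4) to 1.03 (Hoxb8), all lie in the Hoxb cluster and stay above 0 in every setting shown.

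Of the expressed genes Hoxa6, Hoxa7 and Hoxb8 had the largest relative spread from lung to lung in both groups. Their coefficients of variation were 36.6%, 32.7% and 32.3% in the IncPBF lungs and 51.4%, 52.0% and 36.9% in the sham lungs. Those of Hoxa5 were 10.2% and 11.4%. Of the 91 pairs of expressed Hox genes, 9 had deviations from the group means that ran together over the 10 lungs with an exact permutation p under 0.05, and 0 passed after Benjamini-Hochberg adjustment. The highest Pearson r was 0.88 for Hoxb7 and Hoxb8 (exact permutation p = 0.00090, adjusted 0.0822; Spearman rho = 0.82, exact permutation p = 0.0104; r = 0.64 without the 2 lungs farthest from the median). Hoxa7 and Hoxb8, of different clusters, followed with r = 0.88 (exact permutation p = 0.0028, adjusted 0.126; rho = 0.94, exact permutation p = 0.0028; r = 0.85 without 2 lungs). Hoxa6 and Hoxa7 had r = 0.84 (exact permutation p = 0.0091, adjusted 0.228; rho = 0.84, exact permutation p = 0.0111; r = 0.78 without 2 lungs).

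Summed over each cluster, Hoxa RNA overlapped between the groups and Hoxb RNA did not. The Hoxa sum was 80.6 ± 5.50 FPKM in IncPBF and 81.9 ± 10.1 FPKM in sham lungs (SD, n = 5), with overlapping ranges. The Hoxb sum was 34.8 ± 2.91 FPKM, from 30.7 to 38.0, against 25.9 ± 2.63 FPKM, from 21.7 to 28.2, without overlap. Within each lung the ratio of Hoxb to Hoxa was 0.391 to 0.505 in IncPBF and 0.300 to 0.349 in sham lungs, and such a ratio does not depend on how a lung is scaled. Hoxa5 made up 44.4 to 51.2% of the Hox sum in IncPBF lungs and 53.6 to 58.3% in sham lungs. The sums of Hoxc, 0.238 and 0.219 FPKM, and of Hoxd, 0.450 and 0.440 FPKM, were small in both groups. These sums and ratios restate the gene values above and were given no test.

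**Figure D4:**
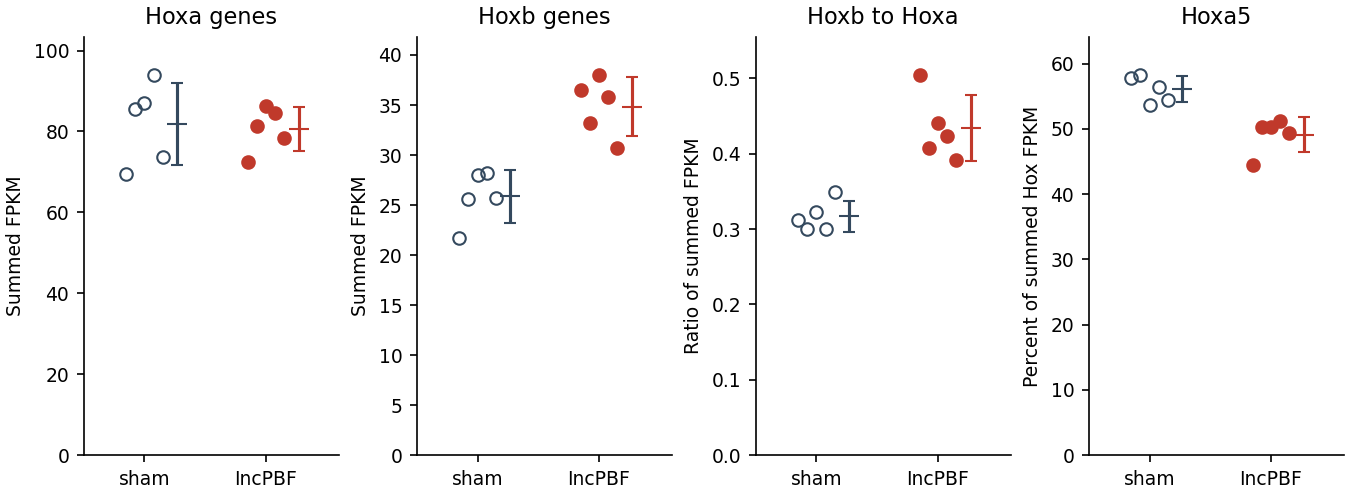
Summed FPKM of the Hoxa and of the Hoxb genes, the ratio of Hoxb to Hoxa and the percent of the Hox sum that Hoxa5 took, each lung as a point (open sham, filled IncPBF) beside the group mean ± SD, n = 5. The groups overlap for Hoxa and are apart in the other 3 panels.

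In bulk RNA fewer cells of a type and less RNA per cell cannot be told apart, and the mesenchyme is where Hox genes of the lung are mainly known to be transcribed. Its markers were present in every lung. Of 11 mesenchymal markers, 3 were called higher (Foxf1, Col1a1 and Col1a2) and 1 lower (Pdgfra), a share near the 32.3% called over all tested genes, and their summed level was 1266 to 1406 FPKM in IncPBF and 1142 to 1386 FPKM in sham lungs. Of 5 smooth muscle and myofibroblast markers 3 (Acta2, Myh11 and Des) were higher, beside 16.1% of all tested genes, and their sum was 104 to 225 FPKM in sham and 286 to 539 FPKM in IncPBF lungs, without overlap. Of 6 endothelial markers 4 were lower, beside 16.2% of all tested genes, with sums of 935 to 1003 FPKM in IncPBF and 976 to 1279 FPKM in sham lungs. The part of these shifts in the Hoxb difference was not tested. Skeletal muscle markers summed to 10.6 FPKM in IncPBF lung 5, 4.60 FPKM in IncPBF lung 2 and 2.84 FPKM in IncPBF lung 4 against at most 2.12 FPKM in sham lungs. All 5 Hoxb calls held without IncPBF lung 5 or without IncPBF lung 2, and Hoxb2 lost its call without IncPBF lung 4. Markers of kidney summed to at most 0.318 FPKM and those of the lining of the oesophagus to at most 0.502 FPKM in any lung.

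The clusters also hold 48 noncoding genes in the table, of which 11 had a mean of at least 0.5 FPKM and 36 had at most 3 fragments in every lung. Those of the Hoxa cluster were Gm27477 (11.4 FPKM), Hotairm1 (4.23), Gm15050 (3.80), Gm27861 (2.97), Hoxaas2 (1.18) and Hoxaas3 (0.999 FPKM). Those of the Hoxb cluster were Gm11536 (2.36), Hoxb5os (1.58), Mir10a (0.626), Hoxb3os (0.588) and Mir196a-1 (0.504 FPKM). Hotairm1, Gm27861 and Gm27477 lie on the 3′ side of Hoxa2 and Mir196a-1 on the 5′ side of Hoxb9, and the others lay within or overlapped the blocks Hoxa2 to Hoxa7 and Hoxb2 to Hoxb8. Mir10a and Mir196a-1 are short and rested on 13 and 10 fragments over all lungs, and Mir10a is also among the 36 genes with at most 3 fragments in a lung. Gm27477 (143 bases) and Gm27861 (214 bases) are short too, and their FPKM rested on 18 to 41 and 7 to 18 fragments per lung. Gm27861 lies within the span of Hotairm1 on the same strand. Only Hoxb3os was called, at 0.730 ± 0.115 FPKM in IncPBF and 0.447 ± 0.0540 FPKM in sham lungs (log2 difference 0.60, adjusted p = 0.0300 in limma). It lost the call in 6 of 10 fits that left out 1 lung (IncPBF 2, 3, 4 or 5, sham 1 or 2), with adjusted p up to 0.0743. Hoxb3os has a length of 4201 bases, and its exons lie opposite 953 exonic bases of Hoxb2 and 2250 of Hoxb3. Strand use in counting is not given, so reads of Hoxb3os and of these 2 genes cannot be told apart there.

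The cofactors that bind DNA with Hox proteins, the 9 Pbx, Meis and Pknox genes of the TALE family, were all expressed. Among them 3 were higher, 2 lower and 4 not called, beside 16.1% higher and 16.2% lower over all tested genes, and the median log2 difference was 0.15. Meis3 rose from 2.20 ± 0.306 FPKM in sham to 3.57 ± 0.466 FPKM in IncPBF lungs (log2 difference 0.68, adjusted p = 0.0015 in limma). Pknox2 fell from 6.45 ± 0.454 to 4.13 ± 0.213 FPKM (log2 difference -0.63, adjusted p = 6.0e-05 in limma). Both had groups without overlap and kept their calls without any 1 lung and with Xist as a covariate.

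Smaller differences were called for Pbx2, the most abundant of the family (20.9 ± 1.09 against 18.3 ± 0.900 FPKM, log2 difference 0.18), for Pbx3 (6.00 ± 0.328 against 5.31 ± 0.183 FPKM, 0.17) and for Meis2 (2.73 ± 0.318 against 3.37 ± 0.429 FPKM, -0.29). These calls were not firm. Pbx2 lost its call without IncPBF lung 3 or 4 or sham lung 5, Pbx3 without IncPBF lung 2, 3, 4 or 5 or sham lung 2, 3 or 5, and Meis2 without IncPBF lung 1, 2 or 4 or sham lung 1, 2 or 4, with adjusted p of at most 0.0549, 0.0733 and 0.109 (limma). With Xist as a covariate none of the 3 passed (adjusted p of 0.308, 0.524 and 0.294, limma). Pknox1 (6.73 ± 0.313 against 6.09 ± 0.206), Meis1 (6.41 ± 0.179 against 6.09 ± 0.479) and Pbx4 (0.872 ± 0.148 against 0.714 ± 0.180 FPKM) did not pass.

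Of 21 Trithorax and Polycomb genes, which keep Hox clusters active or silent, 1 was higher and 5 were lower, a share under the 32.3% called over all tested genes. The median log2 difference was 0.03. Ezh2, the main methyltransferase of Polycomb complex PRC2, rose from 3.81 ± 0.232 to 5.43 ± 0.293 FPKM (log2 difference 0.50, adjusted p = 0.00020 in limma). Its alternate Ezh1 fell from 9.60 ± 0.755 to 6.54 ± 0.184 FPKM (log2 difference -0.54), and Cbx7, a subunit of PRC1, from 4.80 ± 0.185 to 2.95 ± 0.188 FPKM (-0.69). All 3 had groups without overlap. Methyltransferases of the Trithorax side fell by less, Ash1l by 0.41 and Kmt2b by 0.27 on the log2 scale, and the fifth gene, Kmt2a, named here because of its value, by 0.29. Kmt2b lost its call without IncPBF lung 4 (adjusted p = 0.0537, limma). With Xist as a covariate Ezh2, Ezh1 and Cbx7 kept their calls, and Ash1l and Kmt2b did not (adjusted p of 0.179 and 0.246, limma). The most abundant gene of the list, Phc2 of PRC1, had 25.9 ± 1.70 against 24.5 ± 2.53 FPKM and did not pass.

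Of 13 genes that act upstream of Hox genes in the embryo, 6 were tested, 1 was higher and 3 were lower, beside 16.1% and 16.2% of all tested genes. Gdf11, a secreted factor that sets posterior Hox expression along the trunk, rose from 1.61 ± 0.239 FPKM in sham to 3.49 ± 0.152 FPKM in IncPBF lungs (log2 difference 1.08, adjusted p = 3.5e-05 in limma), without overlap. The 3 tested enzymes of retinoic acid, which induces 3′ Hox genes, were called lower, and 3 others (Aldh1a3, Cyp26a1 and Cyp26c1) were too low to test. Aldh1a1, which makes retinoic acid, fell from 131 ± 34.6 to 45.5 ± 11.3 FPKM (log2 difference -1.52), and Aldh1a2, with the same function, from 5.73 ± 2.42 to 3.14 ± 0.708 FPKM (-0.79). Cyp26b1, which breaks retinoic acid down, fell from 15.1 ± 0.899 to 5.34 ± 0.963 FPKM (-1.50, adjusted p = 6.9e-06 in limma). The Aldh1a2 call was lost without IncPBF lung 1, 3 or 4 or sham lung 2 (adjusted p up to 0.0727, limma). With Xist as a covariate Gdf11 and Cyp26b1 kept their calls, and Aldh1a1 and Aldh1a2 did not (adjusted p of 0.0590 and 0.284, limma). Cdx1, Cdx2 and Cdx4, the Cdx factors of the embryonic trunk, and Cyp26c1 had at most 3 fragments in every lung.

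Genes that have been tied to the Hox5 paralogs in the mouse lung numbered 9, of which 2 were higher, 2 lower and 5 not called, a share near the 32.3% called over all tested genes, with a median log2 difference of 0.00. Wnt2, a ligand of the distal mesenchyme, rose from 8.35 ± 1.13 to 13.7 ± 0.562 FPKM (log2 difference 0.71, adjusted p = 0.00015 in limma), and Bmp4, another ligand, from 26.1 ± 2.20 to 34.1 ± 2.74 FPKM (0.38). Wnt2b, which acts with Wnt2, fell from 0.954 ± 0.228 to 0.472 ± 0.0737 FPKM (-0.86), so the pair of ligands moved in opposite directions. Fn1, the matrix protein fibronectin, fell from 230.1 ± 35.1 to 180.0 ± 16.4 FPKM (-0.35), a call lost without IncPBF lung 1 or 4 or sham lung 1, 2 or 5 (adjusted p up to 0.0716, limma). With Xist as a covariate Wnt2 kept its call, and Bmp4, Wnt2b and Fn1 did not (adjusted p of 0.273, 0.190 and 0.274, limma). Elastin (Eln), the most abundant of the 9, had 1939 ± 91.2 against 1721 ± 279 FPKM and did not pass.

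**Figure D5:**
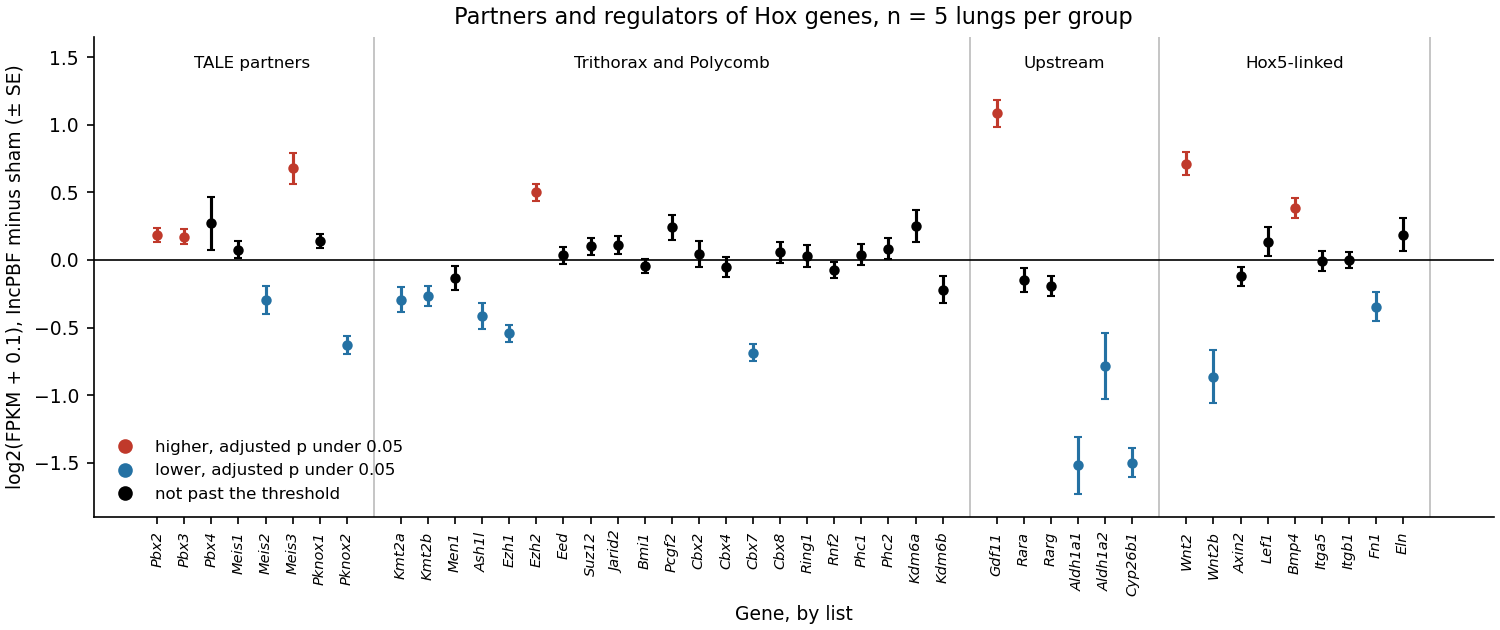
Log2 difference of FPKM + 0.1, IncPBF minus sham, with its SE, for tested genes of 4 lists (red higher, blue lower, black not past the adjusted p of 0.05), n = 5 lungs per group. Each list holds genes on both sides of 0, from Aldh1a1 at -1.52 to Gdf11 at 1.08.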

How the data were processed

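Total RNA of whole P14 lungs was sequenced, 5 lungs of the IncPBF and 5 of the sham group. The authors deposited FPKM per gene, with gene length and position. Bowtie 0.12.2 and the builds GRCm38, mm10 and hg38 are named in the submitters' processing notes, and counting software and strand use are not given in the sources used here. Positions matched GENCODE M21 on GRCm38 for 98.3% of shared genes. The IncPBF columns carry another abbreviation than the titles and were assigned to the group, not to single samples, because the other 5 columns are the sham samples, and lungs are numbered as in the columns.

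FPKM values were tested as log2(FPKM + 0.1) with limma 3.58.1 (eBayes with a trend) in R 4.3.3, for 15388 genes with a mean of at least 0.5 FPKM, with Benjamini-Hochberg adjustment at 0.05 and no covariate. The log2 scale with this pseudocount understates changes of low genes. Single genes were also compared by exact two-sided permutation. Counting errors cover counting only. On simulated data 96.0% of 199 genes changed by 2-fold were recovered, with 5 false calls among 15251 genes. The simulation gave all genes the same dispersion, changed only well-counted genes and held no sex or tissue differences. Its rates therefore do not carry over to changes under 2-fold, to genes with a wide spread or to these lungs. The members and the lists of cofactors, regulators and markers were chosen with earlier results of these data known. Named were the expressed Hox genes, the TALE genes, of the other lists up to 4 called genes per direction and the most abundant gene, and noncoding cluster genes called or at 0.5 FPKM or more. A few items are counted and not reported here by name. Figures were drawn with Python 3.11.15 and matplotlib 3.10.9. Alternatives covered the pseudocount, filter, scaling, limma-voom on recovered fragments, Xist as a covariate, the replicate block, single lungs left out, and, chosen after seeing the data, a correction for GC content and length and the removal of IncPBF lungs 2 and 4.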

Additional observations from a re-analysis of the deposited data

Results flagged for a closer look

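Hoxb5 in sham lung 3 stood at 8.30 FPKM, while the other 4 sham lungs stood at 6.88 to 7.21 FPKM. Its gap to the nearest lung was 0.766 of the range of the group, above Dixon's 95% limit for 5 values. This was the only such case among 28 groups of values (14 expressed Hox genes in 2 groups), where chance gives about 1 in 20. Without this lung the log2 difference of Hoxb5 was 0.45 (adjusted p = 0.0011, limma).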

How the results depend on the processing

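The number of Hox genes called higher was 5 with all lungs and 4 to 6 when single lungs were left out. It was 3 by exact permutation per gene, 3 without IncPBF lungs 2 and 4, and 0 with log2 Xist as a covariate. The number called lower was 0, and 1 (Hoxa5) with the GC and length correction in the fit with the replicate block. Deviations from the group means over all tested genes were hardly correlated between lungs of the same replicate number (-0.07 to 0.09). Such correlations cannot show whether the numbers pair lungs by litter, which the labels do not name. The fit with the replicate block again called 5 Hox genes higher and 0 lower. The count of expressed Hox genes stayed at 14 under every alternative that bears on it. The sign of the log2 difference changed for 3 genes that never passed: Hoxa2 (-0.0144 with the GC and length correction, with and without the block, and -0.0387 with Xist), Hoxb3 (-0.00374 with Xist) and Hoxa7 (0.27 with Xist, 0.19 without IncPBF lungs 2 and 4, and from -0.25 to 0.14 with single lungs left out). Scaling the lungs to equal totals moved the median of all genes to 0.09 and the calls over all genes to 3559 higher of 5341, against 2480 of 4970 as deposited, and left the Hox count at 5. The cause was not tested for any of these changes.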
